A study of Mus musculus with 4 samples.

Results

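The noncoding RNA genes described here are 8 long noncoding RNA genes known from the brain, Malat1, Neat1, Miat, Rmst, Sox2ot, Dlx6os1, Snhg11 and Gas5, chosen by name, with earlier results of these data known. A probe was taken as a member where the transcript accession printed on the array belonged to one of these genes in a RefSeq gene table (assembly GRCm38.p6). Malat1, Neat1 and Dlx6os1 were matched in this way, each by 1 probe with 1 spot, so that 3 of the 8 genes were matched, out of 20660 genes named on the array. The other 5 genes (Miat, Rmst, Sox2ot, Snhg11 and Gas5) were not analysed here, since none of their accessions in that table was printed beside a probe. The array may carry probes for some of them, such as Gas5 and Snhg11, under older accessions that the table does not hold, so that nothing is said here of their levels. The gene table counts 792 of the named genes as long noncoding RNA genes.

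Long noncoding RNAs are transcripts that are not translated into protein and act as RNA, or through the act of being transcribed. Malat1 is an abundant nuclear RNA held in nuclear speckles, bodies rich in splicing factors, and is known in neurons for effects on genes of synapse formation. Neat1 is the RNA scaffold of paraspeckles, nuclear bodies that hold RNA-binding proteins such as Sfpq and Nono. Dlx6os1, also known as Evf2, is transcribed antisense to Dlx6 at the Dlx5/Dlx6 locus of the developing forebrain, where homeodomain factors of the Dlx family direct the formation of GABA neurons.

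RNA of whole brain from C57BL/6J mice at postnatal day 1 was labeled and hybridized to one-color arrays, where a brighter spot stands for more of the RNA that its probe binds. The dams received 25 µL of vehicle (Sham) or of a suspension of titanium dioxide nanoparticles (TiO2-H, 100 µg per mouse) into the trachea on gestational day 10.5, although the sample labels also give day 14. Each exposure had 1 array labelled male and 1 labelled female, and an array held a single pool, made from 2 offspring per dam of 5 Sham or 6 TiO2-H litters. A pool averages its offspring, so that the spread between litters was not measured. The 4 arrays were on 1 slide, with the Sham arrays in row 1 and the TiO2-H arrays in row 2, so that slide row and exposure cannot be told apart.

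The sex labels of the TiO2-H arrays went against the sex-linked RNAs. Xist, the RNA of the inactive X chromosome, was well above background on the arrays labelled Sham female and TiO2-H male, and not on the other two. Eif2s3y, a gene of the Y chromosome, had a scaled signal (explained below) of 4.34 for Sham male, 0.527 for Sham female and 4.99 for the array labelled TiO2-H female. Ddx3y, also of the Y chromosome, was at 1.75, 0.179 and 2.05 on the same arrays. Both were well above background on these 3 arrays, Sham female included, and not on the array labelled TiO2-H male. Of 2 further Y-linked genes, Uty was well above background on the array labelled TiO2-H female alone and Kdm5d on none. The source of the Y-linked signal on the Sham female array was not tested. Ratios within a sex label are therefore given as labelled and also with the TiO2-H arrays crossed. The share of non-control spots well above background was 56.9% on Sham male and 56.2% on Sham female. It was 59.4% and 61.2% on the arrays labelled TiO2-H male and TiO2-H female. The 75th percentile of processed signal was 810, 795, 867 and 871 in that order, so that both TiO2-H arrays were brighter before scaling. No spot was saturated. All 5 neuron markers were well above background on all 4 arrays. Of 3 liver markers, Alb and Apoa1 were not well above background on any array, whereas Afp was on all 4, at 0.055 to 0.074. Of 3 skeletal muscle markers, Acta1 (0.705 to 0.797) and Myh3 (0.117 to 0.171) were well above background on all 4 arrays and Ckm on 1. Of 3 pituitary markers, Gh was well above background on the array labelled TiO2-H male alone and Prl on none. Pomc was on all 4 arrays, at 0.678 to 0.717 on 3 of them and higher on the array labelled TiO2-H male, where its log2 ratio over Sham male was 0.64, past 1.5-fold. The part of such tissue in the values below was not tested.

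Since CpG methylation was a subject of the study, and since Malat1 and Dlx6os1 were both measured higher on the TiO2-H arrays, the windows around their transcription start sites are shown, from 250 bases before to 50 bases after the start, 5′ to 3′ on the strand of the gene. They were taken from RefSeq (GRCm38.p6), with every CpG dinucleotide in capitals. Dlx6os1 has 2 starts in that source, and Neat1 has no window there. The windows can therefore not be set beside that of a member that was not higher.
Malat1 (chr19:5802623-5802922, minus strand): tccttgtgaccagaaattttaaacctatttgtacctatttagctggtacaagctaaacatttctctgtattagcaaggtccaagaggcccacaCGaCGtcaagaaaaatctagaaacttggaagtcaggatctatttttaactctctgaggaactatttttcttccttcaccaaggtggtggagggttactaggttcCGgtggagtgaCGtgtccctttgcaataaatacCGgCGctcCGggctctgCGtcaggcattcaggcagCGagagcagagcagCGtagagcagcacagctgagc
Dlx6os1 (chr6:6869484-6869783, minus strand): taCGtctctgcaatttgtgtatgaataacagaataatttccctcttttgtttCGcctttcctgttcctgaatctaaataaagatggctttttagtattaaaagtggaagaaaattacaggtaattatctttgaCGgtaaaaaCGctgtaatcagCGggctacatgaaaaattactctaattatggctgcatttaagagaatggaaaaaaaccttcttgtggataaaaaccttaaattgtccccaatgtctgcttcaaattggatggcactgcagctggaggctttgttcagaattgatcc
Dlx6os1 (chr6:6861634-6861933, minus strand): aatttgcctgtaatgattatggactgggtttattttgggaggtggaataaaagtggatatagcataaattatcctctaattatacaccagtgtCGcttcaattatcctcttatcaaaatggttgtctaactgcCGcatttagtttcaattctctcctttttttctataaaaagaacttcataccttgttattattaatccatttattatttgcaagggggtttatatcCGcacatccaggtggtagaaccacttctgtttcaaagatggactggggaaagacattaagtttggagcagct
The Malat1 window held 10 CpG and 47.0% GC. The Dlx6os1 windows held 5 and 3 CpG, with 35.67% and 35.33% GC. The median window of the same length, over 32851 windows, held 7 CpG and 52.7% GC, so that 56.5% of all windows had fewer CpG than that of Malat1, against 38.0% and 23.3% for those of Dlx6os1. The homeodomain motif TAATTA, which reads the same on both strands, was matched at 2 positions in the first Dlx6os1 window and at 1 in the second, and at none in the Malat1 window. It was present in 5.29% of all windows. CCAAT, searched on both strands, was matched at 2 positions in the first Dlx6os1 window alone and is present in 37.4% of windows. TATAAA, on both strands, was matched at 2 positions in the second Dlx6os1 window alone and is present in 13.6%. TAATTA and TATAAA hold A and T alone, and the Dlx6os1 windows have less GC than the median window. The shares over all windows are not matched for base content. GGGCGG, on both strands, was matched in none of them and is present in 35.7%. A match is a run of letters and not a measured binding site, and methylation of these windows was not analysed here.

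All values below are the processed signal of a spot divided by the 75th percentile of its array (scaled signal), so that 1 stands for a spot as bright as that percentile. Signals of different probes cannot be set against each other, since each probe has its own brightness per molecule. A gene is therefore compared with itself across arrays. The error beside each scaled signal is the error that the scanner software gives for that spot, and covers no difference between pools. As a second yardstick, probes printed in 10 spots gave an SD of 0.139 (log2) for a difference between 2 spots. It was taken from spots of the same array, so that it leaves out error between arrays. Below, beyond the error of 2 spots means over 1 such SD, a loose cut that is no test. The scanner error of a log2 ratio of TiO2-H over Sham was larger, at 0.21 for each member probe.

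Malat1 (NR_002847) was higher on both TiO2-H arrays than on both Sham arrays. Its scaled signal was 0.654 ± 0.066 in Sham male and 0.591 ± 0.060 in Sham female brain RNA. It was 0.853 ± 0.086 on the array labelled TiO2-H male and 0.883 ± 0.089 on the array labelled TiO2-H female (scanner error, 1 array each). The Sham and TiO2-H arrays did not overlap, and the lowest TiO2-H value was 1.31 times the highest Sham value. The 2 TiO2-H arrays, 0.048 apart (log2), were closer than the error of 2 spots, whereas the 2 Sham arrays, 0.15 apart, were just beyond it. In whole tissue, more cells that hold an RNA and more of that RNA per cell cannot be told apart.

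Dlx6os1 (NR_015388) had the same order of arrays. Its scaled signal was 0.677 ± 0.068 in Sham male and 0.623 ± 0.063 in Sham female brain RNA. It was 0.820 ± 0.082 on the array labelled TiO2-H male and 0.834 ± 0.084 on the array labelled TiO2-H female. Again the exposures did not overlap, with the lowest TiO2-H value at 1.21 times the highest Sham value. The arrays of one exposure differed by 0.12 (Sham) and 0.025 (TiO2-H) on the log2 scale, both within the error of 2 spots, while the gap between the exposures was 0.28.

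Neat1 (NR_003513) did not separate the exposures. Its scaled signal was 0.438 in Sham male, 0.439 in Sham female, 0.485 on the array labelled TiO2-H male and 0.425 on the array labelled TiO2-H female, with scanner errors from 0.043 to 0.049. The array labelled TiO2-H female was the lowest and the array labelled TiO2-H male the highest, and the 2 Sham arrays lay between them. Of the steps between neighbours in that order, only Sham female to the array labelled TiO2-H male (0.14, log2) was beyond the error of 2 spots. The ratio of the TiO2-H arrays, labelled female over labelled male (−0.19, log2), was also beyond it. Both differences are smaller than the scanner error of 0.21 for a ratio of TiO2-H over Sham. Neat1 lies beside Malat1 on chromosome 19, with no gene between them in the gene table. That table holds 2 transcripts of Neat1, and the probe is listed under 1 of them. Whether it also binds the other was not analysed, so that its signal is not read as a level of paraspeckles.

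**Figure D1:**
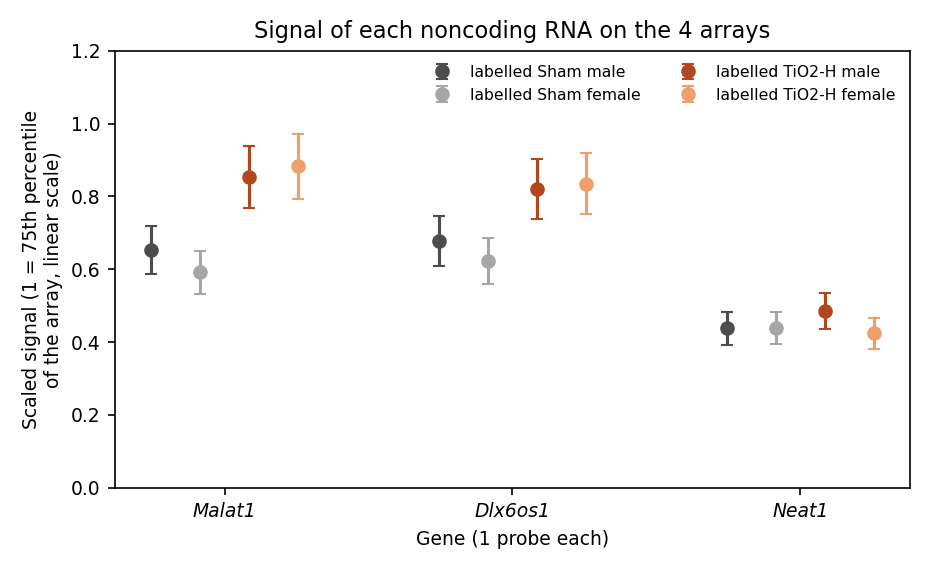
Scaled signal (linear, 1 = the 75th percentile of the array) of the probes of Malat1, Dlx6os1 and Neat1 on each of the 4 arrays, where a point is 1 array and its bar the scanner error of the spot. Malat1 and Dlx6os1 lie higher on both TiO2-H arrays (0.853 and 0.883, 0.820 and 0.834) than on both Sham arrays (0.591 to 0.654, 0.623 to 0.677), and Neat1 lies between 0.425 and 0.485 on all 4; heights of different genes are not comparable.

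The study called an RNA changed at 1.5-fold or more, or 0.67-fold or less, of Sham within a sex. With 1 array on each side no test can be made, and a fold change is a ratio of 2 pools. None of the 3 probes passed either threshold. Malat1 came nearest, at 1.31-fold for the arrays labelled male and 1.49-fold for those labelled female (log2 0.38 and 0.58, with a scanner error of 0.21 each). Dlx6os1 was at 1.21-fold and 1.34-fold, and Neat1 at 1.11-fold and 0.968-fold. For comparison, 4.08% of the 33328 probes compared on the arrays labelled male were at 1.5-fold or more and 3.29% at 0.67-fold or less. On the arrays labelled female these shares were 2.65% and 3.31% of 34067 probes.

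With the TiO2-H arrays crossed, Malat1 again had the highest ratios and Neat1 the lowest. The array labelled TiO2-H female over Sham male gave 1.35-fold for Malat1, 1.23-fold for Dlx6os1 and 0.969-fold for Neat1. The array labelled TiO2-H male over Sham female gave 1.44-fold, 1.32-fold and 1.11-fold. Malat1 and Dlx6os1 were thus above 1 in every pair of a TiO2-H and a Sham array, whereas Neat1 was above 1 against both Sham arrays for the array labelled TiO2-H male and below 1 for the other. The ratio between the 2 Sham arrays, female over male, was −0.15 for Malat1, −0.12 for Dlx6os1 and 0.0017 for Neat1 on the log2 scale. Over the 29406 probes well above background on all 4 arrays, that ratio had a robust SD of 0.102, and the ratios of TiO2-H over Sham had robust SDs of 0.153 (labelled male) and 0.155 (labelled female).

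**Figure D2:**
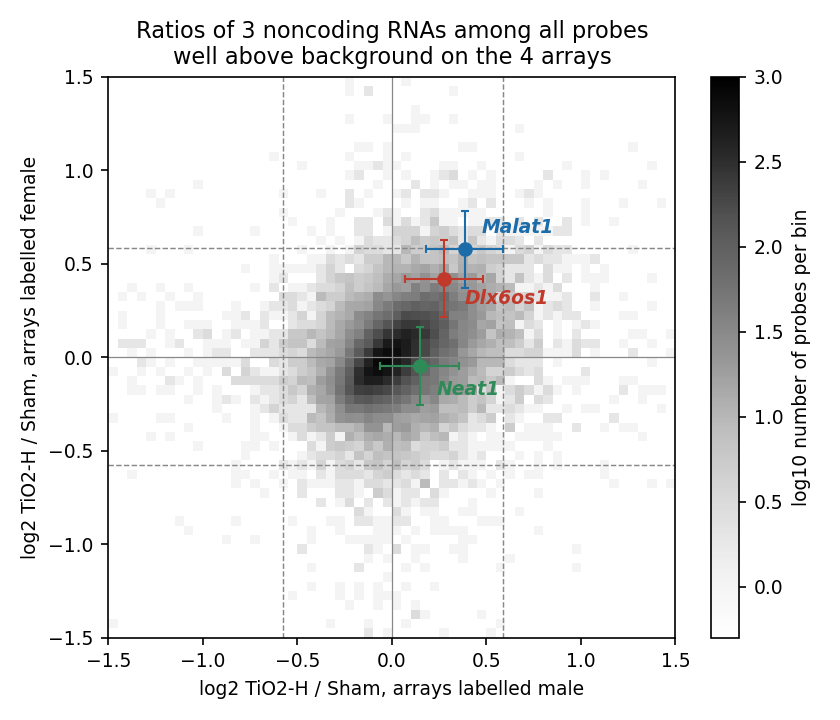
Log2 ratio of TiO2-H over Sham on the arrays labelled male (x axis) and female (y axis) for probes well above background on all 4 arrays, shaded by the number of probes per bin (log10 scale), with dashed lines at 1.5-fold and 0.67-fold; 210 of 29406 probes lie outside the axes. Malat1 (0.38 and 0.58) and Dlx6os1 (0.28 and 0.42) lie in the upper right inside the dashed lines and Neat1 (0.15 and −0.047) near the centre, with bars for the scanner error of each ratio.

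With both sex labels pooled, limma compared the 2 TiO2-H arrays with the 2 Sham arrays over 35625 probes well above background on at least 1 array. The mean scaled signal of Malat1 was 0.868 ± 0.021 against 0.623 ± 0.044 (SD, n = 2), a log2 difference of 0.48 with a standard error of 0.072 and a 95% interval from 0.26 to 0.70. That of Dlx6os1 was 0.827 ± 0.010 against 0.650 ± 0.038, a log2 difference of 0.35 (standard error 0.063, interval 0.16 to 0.54). That of Neat1 was 0.455 ± 0.043 against 0.438 ± 0.00037, a log2 difference of 0.050 (standard error 0.085, interval −0.21 to 0.31). None passed after Benjamini-Hochberg adjustment over all probes, with limma's adjusted p at 0.351, 0.351 and 0.787 in that order. The intervals of Malat1 and Dlx6os1 are not adjusted for the number of probes.

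No probe of the array passed either (0.0% at an adjusted p under 0.05, lowest 0.311), while 13.9% had an unadjusted p under 0.05. An order in which both TiO2-H arrays stand above both Sham arrays was found for 26.3% of probes, and the opposite order for 26.9%, so that the order of Malat1 and Dlx6os1 was common. A gap between the exposures at least as wide as that of Malat1 (0.38, log2), in that direction, was found for 349 probes, 0.98% of those tested. One at least as wide as that of Dlx6os1 (0.28) was found for 852 probes, 2.39%. The shares of these orders and gaps also count probes that were dim on some arrays. There the order can come from the raising of dim signals.

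Dlx6os1 overlaps Dlx6 on chromosome 6 and has Dlx5 as its other neighbour in the gene table. Dlx6, a homeodomain factor, had scaled signals of 0.176 (Sham male), 0.220 (Sham female), 0.184 (labelled TiO2-H male) and 0.206 (labelled TiO2-H female), so that both TiO2-H arrays lay between the Sham arrays (log2 difference −0.016, limma adjusted p = 0.963). Dlx5, its paired homeodomain gene, was at 0.643, 0.645, 0.617 and 0.623 in the same order, slightly below Sham on both TiO2-H arrays (−0.056, adjusted p = 0.544). The higher signal of Dlx6os1 on the TiO2-H arrays was therefore not matched by the probes of its neighbours. Nor did the marker list of interneurons stand higher: of Gad1, Gad2, Dlx1, Dlx2 and Lhx6, none was above Sham on both TiO2-H arrays, 1 was below and 4 overlapped, with a median log2 difference of −0.010. Their summed scaled signal, in which the brightest probe (Lhx6, 11.2 to 12.4) weighs most, was 32.2 to 33.7 on the Sham arrays and 32.5 to 33.1 on the TiO2-H arrays. For comparison with these counts, 26.3% of all probes tested were above Sham on both TiO2-H arrays and 26.9% below. The sequence and strand of the probes were not analysed here.

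**Figure D3:**
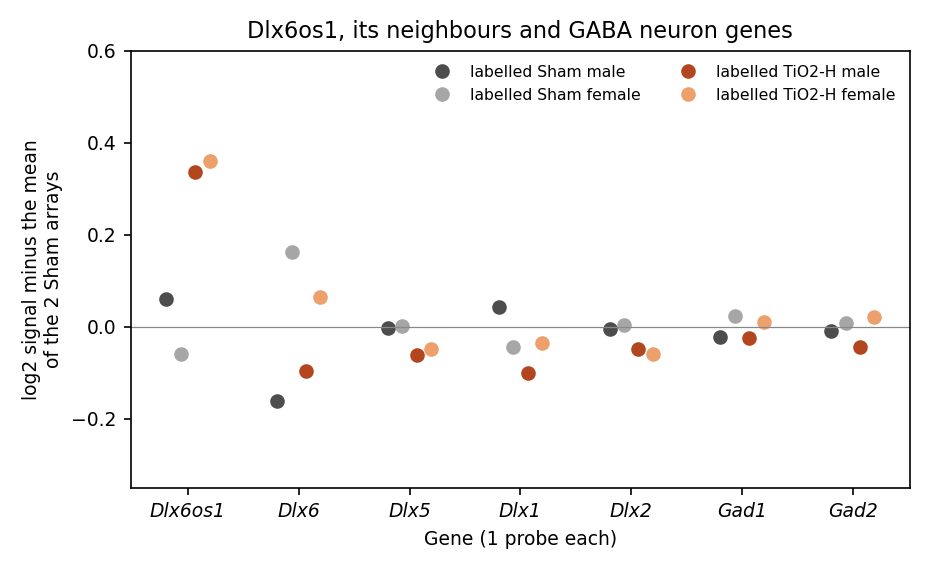
Log2 signal of Dlx6os1, its neighbours Dlx6 and Dlx5, and Dlx1, Dlx2, Gad1 and Gad2 on the 4 arrays, each minus that gene's mean over the 2 Sham arrays; a point is 1 array. Dlx6os1 alone among these 7 genes has both TiO2-H points above both Sham points.

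The RNAs for RNA-binding proteins that share nuclear bodies with Malat1 and Neat1 differed between the exposures by −0.12 to 0.16 (log2). Protein was not measured. Of 11 genes of paraspeckles and nuclear speckles, 5 were above Sham on both TiO2-H arrays, 3 below and 3 overlapped, with a median log2 difference of 0.071 against 0.0006 over all probes tested. Beside this and the counts that follow, 26.3% of all probes tested were above and 26.9% below. None of the 11 passed either fold threshold in either sex label, and none passed limma's adjusted threshold. Among the 9 companions of Sox2ot, Dlx6os1 and Rmst, 2 stood above, 2 below and 5 overlapped, with a median of −0.016. They hold Sox2, the stem cell factor whose gene lies inside the Sox2ot transcription unit, at 2.23, 2.25, 2.30 and 2.33 in the order of arrays given above (log2 0.048, limma adjusted p = 0.597). Of the 3 RNA-binding partners of Miat, 2 stood above and 1 below (median 0.13), and of the 4 companions of Gas5, 2 stood above, 1 below and 1 overlapped (median 0.032).

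Other noncoding RNA genes were read from a list of 20, of which 15 were matched and 14 tested. Of these 14, 7 were above Sham on both TiO2-H arrays, 2 below and 5 overlapped, and the median log2 difference was 0.10. Without Xist and its X-linked neighbours Jpx and Ftx, 6 of 11 were above, 2 below and 3 overlapped, with a median of 0.078. In both counts, 1 of the 2 below was well above background on 1 array alone. Its Sham values had been raised to the lowest signal well above background, which is higher on the Sham arrays. Its order was therefore not measured. Of 10 matched genes that host small nucleolar RNAs, the class to which Snhg11 and Gas5 belong, 2 were above, 6 below and 2 overlapped, with a median of −0.092. No gene of either list passed limma's adjusted threshold. Over all 449 probes of long noncoding RNA genes tested, 29.6% were above and 23.4% below, with a median of 0.036, and over 20621 probes of protein-coding genes the shares were 28.4% and 27.0%, with a median of 0.0045. Malat1 and Dlx6os1 were well above background on all 4 arrays. Among the 336 long noncoding RNA probes of that kind, the median was 0.061, with a robust SD of 0.180. Among 18705 such protein-coding probes these were 0.0066 and 0.124. The median of the class was thus above that of protein-coding probes and below the differences of Malat1 (0.48) and Dlx6os1 (0.35).

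Marker lists of brain and blood cell types differed by smaller amounts on the same arrays. For the counts that follow, 26.3% of all probes tested were above Sham on both TiO2-H arrays and 26.9% below. All 4 microglia markers were above Sham on both TiO2-H arrays, with a summed scaled signal of 36.9 to 39.0 in Sham and 41.8 to 44.8 in TiO2-H. For Cx3cr1 the margin was small, at 2.14 on Sham female against 2.15 on both TiO2-H arrays. The counts of all lists take a margin of any size. Of the 5 oligodendrocyte lineage markers 3 were above and 2 overlapped (19.1 to 19.2 against 20.9 to 21.4), and of the 5 neuron markers 2 were above, 1 below and 2 overlapped (184 to 188 against 187 to 193). Both matched red blood cell markers were below Sham (60.0 to 62.5 against 51.4 to 51.7). These sums rest mainly on the brightest probe of each list, such as Itgam (25.3 to 32.1) for microglia and Tubb3 (94.8 to 99.8) for neurons, and are not a measure of cell number. The median log2 difference of the lists, in which every gene counts alike, was 0.15, 0.11, 0.12 and −0.21, against 0.48 for Malat1 and 0.35 for Dlx6os1. The lists of radial glia, astrocytes and endothelium had medians of 0.045, −0.017 and 0.12. The part of cell composition in the values of Malat1 and Dlx6os1 was not tested.

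**Figure D4:**
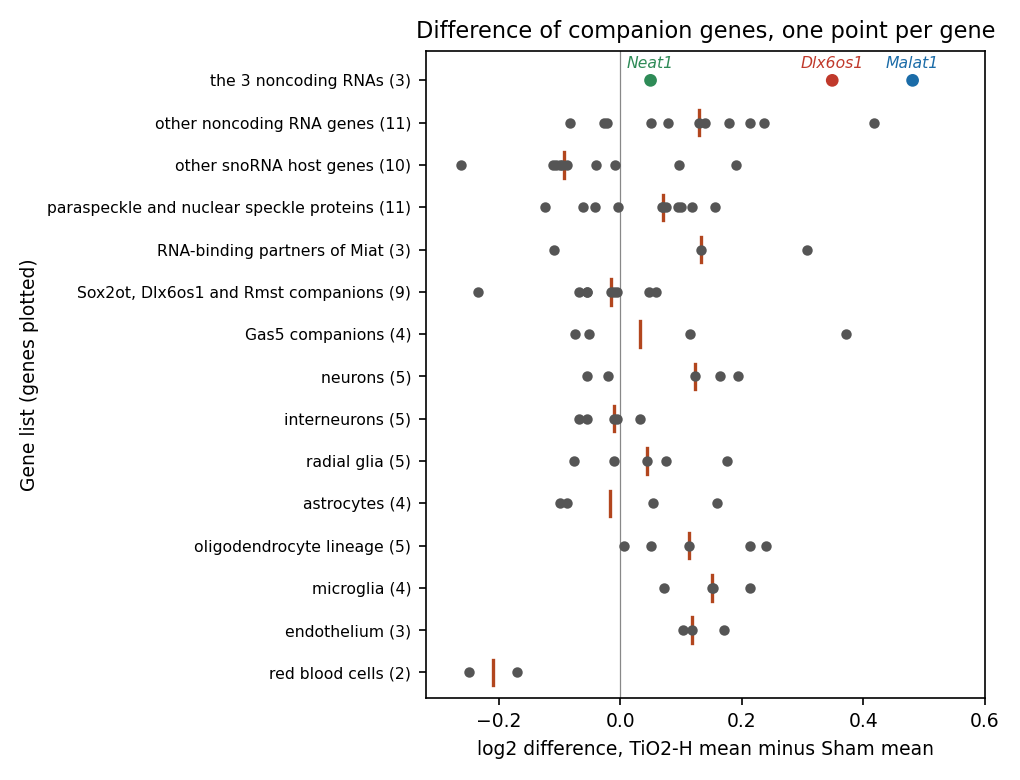
Log2 difference between the mean of the 2 TiO2-H arrays and the mean of the 2 Sham arrays, 1 point per gene well above background on all 4 arrays, by gene list, with the number of genes plotted in brackets and a vertical bar at the median of each list. Malat1 (0.48) lies to the right of all genes plotted, Dlx6os1 (0.35) to the right of all other plotted genes but Kcnq1ot1 (0.42) and Zbtb37 (0.37), both named after their values were seen, and Neat1 (0.050) within the range of most lists.

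Malat1 was the only one of the 3 that spanned at least 0.5 (log2) over the 4 arrays, at 0.58, and its pattern was set against 19172 probes. The nearest were Csmd3, with scaled signals of 0.142, 0.127, 0.182 and 0.187 and a root mean square difference of 0.014 (log2, after each gene was centred), and Cep290, at 0.141, 0.127, 0.187 and 0.194 with a difference of 0.016. With 4 values per probe, a close match among 19172 probes was bound to be found. Both differences are below the SD of 0.139 for 2 spots, so that which genes rank nearest was not resolved. The likeness was not tested and describes these 4 pools, which share their slide and their pairing of row with exposure.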

How the data were processed

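Total RNA of pooled whole brains was measured on 4 Agilent SurePrint G3 Mouse GE arrays. For each array, the scanner's spot table and a column of the same values were deposited. Both hold intensity after background subtraction by Feature Extraction 10.10.1.1, per the file headers, with no scaling between arrays; the deposited table equalled the processed signal for all 59305 non-control spots.

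The log2 processed intensity minus the log2 of the array's 75th percentile was used. Outlier spots were left out, and dim signals were raised to the lowest signal well above background on that array. TiO2-H (2 arrays) was compared with Sham (2 arrays) by limma (version 3.58.1, R 4.3.3) and p-values were adjusted after Benjamini-Hochberg. These p-values measure only the spread between 4 pools, and 2 arrays against 2 cannot give an exact permutation p below 0.33. The steps were tested on simulated data. For listed genes with several probes, the brightest stood for the gene. The gene table named 27235 of 55681 probes.

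Named are every probe of the 8 genes, Sox2, Dlx5 and Dlx6, listed genes past 1.5-fold in one direction in both sex labels (there were none), and the 2 genes most like a member that spanned 0.5 log2. Sex-linked and tissue markers were named as checks, and other listed genes within counts, except Kcnq1ot1 and Zbtb37, named after their values were seen. The members and lists were chosen with earlier results of these data known. Alternatives were quantile normalization, no scaling between arrays, the deposited table, normexp (offset 50, on median signals in place of the planned mean signals), other filters, no floor, flagged spots kept, 1 row for each gene, a 2-fold threshold, sex as a term, crossed TiO2-H arrays and each array left out.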

Additional observations from a re-analysis of the deposited data

Results flagged for a closer look

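Neat1 had TiO2-H over Sham ratios of opposite sign in the sex labels: log2 0.15 on the arrays labelled male and −0.047 on those labelled female, a difference of −0.193 (female minus male). With 1 array per group this difference was not tested. Each ratio was within its scanner error of 0.21, and the sex-linked RNAs went against the labels of the TiO2-H arrays.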

How the results depend on the processing

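With 2 arrays against 2, the number of arrays limits what can be called, and limma called no probe under any alternative. The labels give no replicate numbers that pair arrays; with sex as a term, as labelled or crossed, 3200 and 3097 probes had an unadjusted p under 0.05 and none passed after adjustment. The limma differences of Malat1 and Dlx6os1 kept their sign under all 15 alternatives, from 0.38 to 0.60 and from 0.29 to 0.46, with adjusted p from 0.160 to 0.530. That of Neat1, from −0.049 to 0.16 (adjusted p from 0.335 to 0.897), turned to −0.049 with normexp on median signals and ran from −0.046 to 0.15 with 1 array left out, the lower value without the array labelled TiO2-H male; the cause was not tested. Without scaling, which moves the median of all probes by 0.115 (log2), 1 member probe, Malat1 on the arrays labelled female, passed 1.5-fold (log2 0.71); under the other alternatives none did. On the arrays labelled female, the ratio of Malat1 was 0.47 with normexp and that of Dlx6os1 0.55 without scaling.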
